A study of Mus musculus with 17 samples.

Results

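The HOX genes of the mouse were described across 17 RNA-seq libraries of bile duct. HOX genes encode homeodomain transcription factors and lie in 4 clusters, named A to D. Members were the protein-coding rows of the deposited table named Hoxa, Hoxb, Hoxc or Hoxd with a paralogue number from 1 to 13 and nothing after it, and no filter on expression was used to choose them. This gave 39 genes of the table's 43346 rows, of which 22032 were protein coding. Cluster A held 11 members on chromosome 6, cluster B held 10 on chromosome 11, cluster C held 9 on chromosome 15 and cluster D held 9 on chromosome 2.

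The title of the series names extrahepatic cholangiocarcinoma, cancer that starts in bile ducts outside the liver, in mice. All 17 samples carried the same label, bile duct tissue of Mus musculus with total RNA as the material. The labels gave no genotype, strain, treatment, time or age and did not say which libraries, if any, came from tumours. No comparison of conditions was therefore made. Each library is named here by its column, a code followed by a running number. Of the 6 codes, 5 covered 3 libraries and R63494 covered 2, and no label explains the code. Nothing says that libraries came from separate animals, so the spread between them may be partly technical.

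The paralogue number of a HOX gene gives its place in its cluster. Low numbers lie at the 3' end and are used in the head and front trunk of the embryo, and high numbers lie at the 5' end and are used towards the tail, in the limbs and in the urogenital tract. Adult tissues often keep part of this positional pattern, best known in fibroblasts and other mesenchymal cells. Polycomb proteins keep silent HOX genes closed, trithorax proteins keep active ones open, and retinoic acid switches on the low-numbered genes in the embryo.

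A library held between 16400556 and 24152314 counts (median 17886041). The label was checked against markers of the tissue. All 12 cholangiocyte markers had counts, and their summed level lay between 8220 and 11047 counts per 1000000 (CPM) in every library. Krt8, a keratin of simple epithelia, had a median of 1134 RPKM, that is, the read count divided by gene length and library size (in 1000 bases and 1000000 reads). Libraries were not pure epithelium. Summed fibroblast markers ranged from 3299 to 15829 CPM, and summed pancreatic acinar markers reached 3829 to 89964 CPM in the 3 R62850 libraries against at most 24.7 CPM elsewhere. In bulk tissue, fewer cells of a type and less RNA per cell cannot be told apart.

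Stretches of DNA just upstream of 6 HOX genes are printed to show how CG pairs lay in windows of genes that were read in this tissue and of genes that were not. RefSeq promoters on GRCm38.p6 were found for 22 of the 39 members, in 24 windows. The 250 bases before the start are given 5' to 3' on the gene's own strand, with CG pairs in capitals. Hoxa2, Hoxa5, Hoxb4 and Hoxd8 had the highest median levels among members with a window. Hoxa13 and Hoxd13, the members at the 5' end of their clusters, had no count in any library. None of the 6 windows overlapped an exon in the GENCODE M21 annotation.
Hoxa2, chr6:52164832-52165081, minus strand: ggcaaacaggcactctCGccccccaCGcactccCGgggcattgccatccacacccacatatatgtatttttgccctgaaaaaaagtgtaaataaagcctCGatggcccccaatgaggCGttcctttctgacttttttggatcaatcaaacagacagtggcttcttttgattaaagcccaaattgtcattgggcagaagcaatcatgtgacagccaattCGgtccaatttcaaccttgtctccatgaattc
Hoxa5, chr6:52204588-52204837, minus strand: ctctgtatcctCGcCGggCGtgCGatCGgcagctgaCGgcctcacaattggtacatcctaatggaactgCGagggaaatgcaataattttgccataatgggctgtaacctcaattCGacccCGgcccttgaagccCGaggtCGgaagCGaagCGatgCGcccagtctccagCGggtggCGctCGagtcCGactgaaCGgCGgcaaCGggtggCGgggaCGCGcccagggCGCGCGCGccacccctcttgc
Hoxb4, chr11:96318017-96318266, plus strand: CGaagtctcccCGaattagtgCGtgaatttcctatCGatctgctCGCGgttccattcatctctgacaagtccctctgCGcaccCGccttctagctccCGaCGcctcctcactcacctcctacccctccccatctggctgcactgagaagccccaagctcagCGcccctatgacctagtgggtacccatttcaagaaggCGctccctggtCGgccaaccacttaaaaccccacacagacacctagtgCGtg
Hoxd8, chr2:74704365-74704614, plus strand: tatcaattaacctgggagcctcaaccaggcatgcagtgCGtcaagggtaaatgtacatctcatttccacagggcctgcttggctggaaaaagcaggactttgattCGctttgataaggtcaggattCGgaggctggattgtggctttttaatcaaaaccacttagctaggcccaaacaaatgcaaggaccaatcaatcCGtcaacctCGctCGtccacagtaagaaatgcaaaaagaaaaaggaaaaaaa
Hoxa13, chr6:52260881-52261130, minus strand: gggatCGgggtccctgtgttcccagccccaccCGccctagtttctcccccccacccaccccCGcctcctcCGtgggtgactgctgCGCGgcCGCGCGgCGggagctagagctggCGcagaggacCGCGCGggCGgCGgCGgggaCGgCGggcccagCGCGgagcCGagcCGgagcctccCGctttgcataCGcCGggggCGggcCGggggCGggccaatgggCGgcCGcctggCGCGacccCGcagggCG
Hoxd13, chr2:74667975-74668224, plus strand: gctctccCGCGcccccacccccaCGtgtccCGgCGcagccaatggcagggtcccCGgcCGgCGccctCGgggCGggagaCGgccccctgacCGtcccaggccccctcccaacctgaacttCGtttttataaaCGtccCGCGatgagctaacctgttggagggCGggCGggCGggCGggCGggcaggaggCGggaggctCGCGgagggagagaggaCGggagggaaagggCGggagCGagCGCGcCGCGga

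The windows of Hoxa2 and Hoxd8 held 6 CG pairs each, that of Hoxb4 held 14 and that of Hoxa5 held 28. The window of Hoxd13 held 31 and that of Hoxa13 held 35. Over the 24 HOX windows the median was 12.5 CG pairs, with a range of 2 to 35, against a median of 6 over all 32851 RefSeq windows. The 10 windows of members without counts had a median of 16.5, and the 6 windows of members kept by the expression filter had a median of 10. Their ranges overlapped, with 2 to 35 in the first and 3 to 28 in the second.

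Short motifs were counted in the same windows on both strands. The letters AGGTCA, the binding half-site of retinoic acid receptors, stood in 6 of 24 HOX windows, or 25%, against 4607 of all 32851. Hoxb4, Hoxd4 and Hoxd8 were the kept members with this match. The letters TGATTNAT, a site described for HOX proteins bound together with PBX, stood in 2 HOX windows, or 8.33%, against 2.82% of all, and Hoxa2 was one of them. CCAAT stood in 58.3% of HOX windows and 33.8% of all, and TATAAA in 16.7% and 12.4%. No motif contains another, matches that shared bases were each counted, and a match describes letters only.

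Counts for HOX genes were few. The 39 members together took 9450 of 316263555 counts over all libraries. By library they took 17.8 CPM of all counts in R63494_1, a median of 28.5, and 46.9 in R62848_1. Of the 39 members, 15 had no count in any library, against 15.96% of all protein-coding genes. Only 10 members had counts in every library, against 66.0% of protein-coding genes. The expression filter kept 9 members, against 62.7% of protein-coding genes. A median of at least 1 RPKM was reached by 5 members, against 57.4%. The kept members ranked between the 39.1st and 45.6th percentile of protein-coding genes by median RPKM, so the HOX genes that were read lay below the middle of the transcriptome.

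Most members that were read had low paralogue numbers. Kept members were Hoxa2, Hoxa3, Hoxa4, Hoxa5, Hoxb2, Hoxb3, Hoxb4, Hoxd4 and Hoxd8. That is 4 of 8 members of paralogue groups 1 to 3, 5 of 15 members of groups 4 to 8, and none of 16 members of groups 9 to 13. Every member numbered 11 to 13 was at 0 in all libraries. Over the whole series, 3 counts would place a gene without counts at no more than 0.00225 to 0.00919 RPKM, depending on its length, and this limit covers counting error only. Spearman's rho between paralogue number and median RPKM, taken across genes as a description, was -0.79 in cluster A, -0.51 in cluster B, -0.46 in cluster D and -0.57 over all 39. In cluster C, 3 of 9 members had counts and only Hoxc9 had a median above 0. Hoxc9 holds the middle paralogue number of that cluster, so rho had to be 0 there and describes no profile. Genes of a cluster are neighbours and share their libraries, so these are not independent points.

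**Figure D1:**
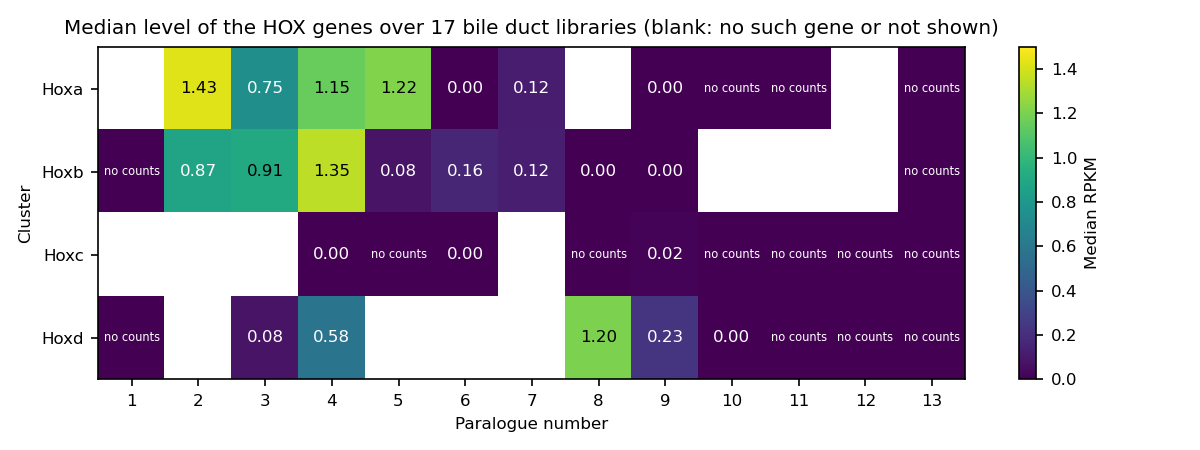
Median RPKM of the HOX genes shown, over 17 libraries, with clusters in rows, paralogue numbers in columns and colour for the level; blank cells are genes that mouse does not have or that are not shown. The highest cells are Hoxa2 at 1.43, Hoxb4 at 1.35, Hoxa5 at 1.22, Hoxd8 at 1.20 and Hoxa4 at 1.15, and all genes numbered 11 to 13 had no counts.

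Clusters differed in what they gave. Cluster A carried a median of 45.5% of summed HOX RPKM, from 34.0% in R62848_1 to 53.9% in R62850_1. Cluster B carried 35.1%, from 23.4% to 43.0%, and cluster D 20.4%, from 9.84% to 27.2%. Cluster A was the highest in 16 of 17 libraries, and cluster B in the other one. Cluster C was the lowest in all 17, with a median share of 0.255% and a highest share of 2.12%, and 5 libraries had no count for any of its genes. Without adjustment for gene length, cluster A had a median of 40.2% of HOX counts and cluster B 40.2%, so the gap between them rests on the scale.

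Paralogue groups 1 to 3 carried a median of 36.8% of summed RPKM, groups 4 to 8 carried 59.6% and groups 9 to 13 carried 2.90%. By RPKM the central groups exceeded the anterior ones in all 17 libraries. By counts the medians were 45.1% for the anterior and 51.4% for the central groups. On that scale the anterior share was the larger in some libraries, such as R63500_2 with 57.9% against 40.0%. By single number and RPKM, group 4 carried the most at 28.8%, followed by group 2 at 20.3%, group 3 at 16.5%, group 5 at 12.2% and group 8 at 10.95%. This order turns with the scale, since by counts group 3 led with 30.2%, followed by group 4 at 24.4% and group 2 at 16.2%.

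**Figure D2:**
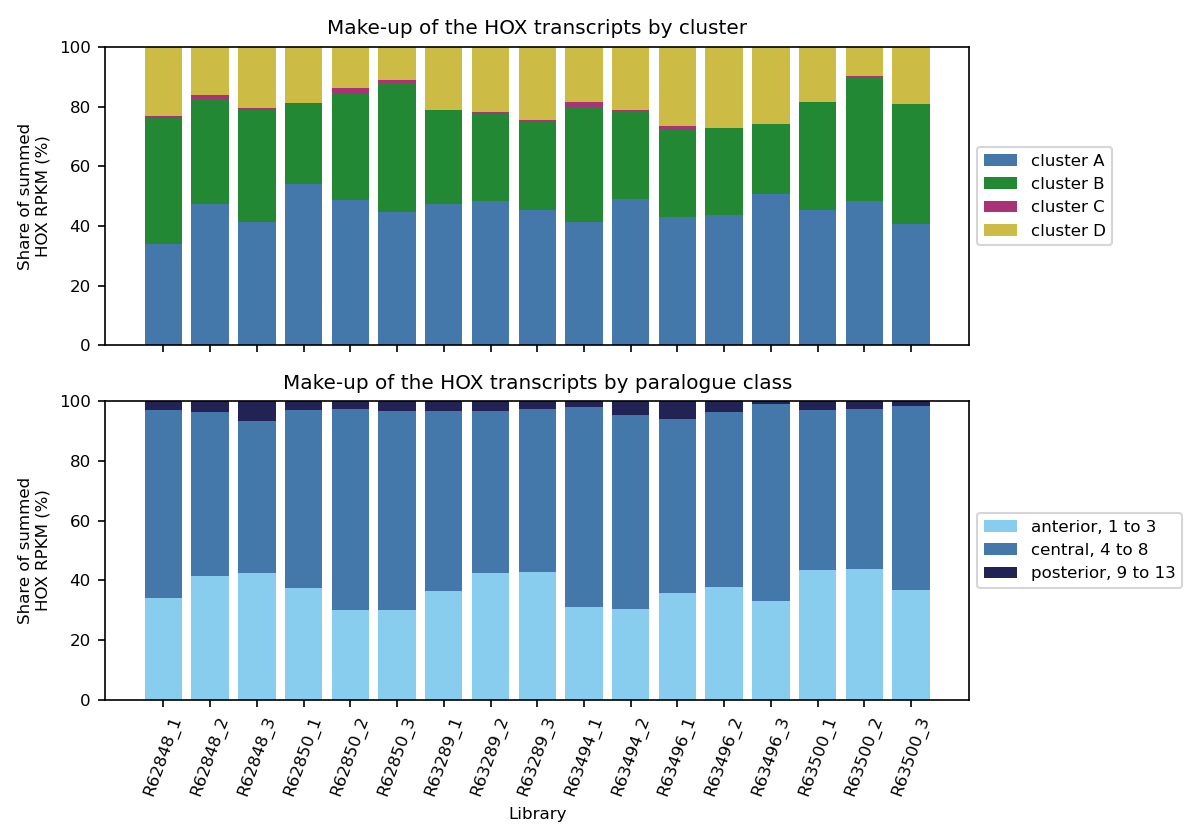
Share of summed HOX RPKM in percent for each of the 17 libraries, stacked by cluster (upper bars) and by paralogue class (lower bars). Cluster A ranges from 34.0% to 53.9%, cluster C never exceeds 2.12%, and the posterior class lies between 1.02% and 6.55%.

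In group 1, Hoxb1 and Hoxd1 had no count in any library.

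Group 2 acts in the hindbrain and in the second pharyngeal arch. Hoxa2 (chr6:52162511-52164831, mm10) ran from 0.529 RPKM in R63494_1 through a median of 1.43 to 2.43 in R62848_2. It was the highest HOX gene in 8 of 17 libraries. Both R63494 libraries, at 0.529 and 0.555, lay below the other 15, of which the lowest was at 0.793. Hoxb2 (chr11:96350525-96354012) ran from 0.134 RPKM in R63494_2 through 0.873 to 1.35 in R62848_3. Hoxa2 exceeded Hoxb2 in 16 of 17 libraries, and R63500_2 was the exception, with Hoxb2 at 1.35 and Hoxa2 at 0.923. Hoxb2 was high in the R62848 and R63500 libraries, at 0.983 or above in all 6, and at most 0.898 in the rest.

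Group 3 is needed for the neck organs that arise from the pharynx, such as the thymus and parathyroid. Hoxb3 (chr11:96323326-96347930) ran from 0.363 RPKM in R63494_1 through 0.909 to 1.71 in R62848_1. All 3 R62848 libraries, from 1.16 upward, lay above the highest of the others at 1.15, a narrow gap. Hoxa3 (chr6:52169062-52213336) was the steadiest of the kept members, from 0.414 in R62850_2 through 0.748 to 0.964 in R62848_1. It too was higher in all 3 R62848 libraries than in any other, by 0.892 against 0.887. Hoxb3 exceeded Hoxa3 in 13 of 17 libraries. Hoxd3 had a median of 0.0808 RPKM.

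Group 4 was the only group with 3 kept members. Hoxb4, known for its effect on blood stem cells in culture, lies at chr11:96318267-96321638. It ran from 0.860 RPKM in R63494_2 through 1.35 to 2.92 in R62848_1 and was the highest HOX gene in 5 libraries. High values also appeared in R62850_3, at 2.85, so its codes overlapped. Hoxa4 (chr6:52189671-52191753) ran from 0.752 in R63289_1 through 1.15 to 2.18 in R62848_1, and the pair of R63494 libraries lay far apart, at 0.781 and 1.84. Hoxd4 (chr2:74711929-74729160) varied the most, from 0.0752 RPKM and 4 counts in R63500_2 through 0.577 to 1.53 and 99 counts in R62848_1. The next highest library for Hoxd4 was R63496_2 at 0.813. Hoxb4 exceeded Hoxd4 in all 17 libraries and Hoxa4 in 15. Hoxc4 had 11 counts in 3 libraries, 9 of them in R62850_2.

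Group 5 was almost wholly Hoxa5, a gene that the lung needs to develop. Hoxa5 (chr6:52201754-52204587) ran from 0.317 RPKM in R63494_2 through 1.22 to 1.92 in R62848_2 and made up a median of 94.1% of its group. The R63494 libraries, at 0.317 and 0.537, again lay below all others, whose lowest was R62848_1 at 0.754. Hoxb5 had a median of 0.0798 and Hoxc5 no count. Medians in groups 6 and 7 were near the limit of detection. Hoxb6 had a median of 0.159 RPKM, Hoxb7 of 0.124 and Hoxa7 of 0.119, none with counts in all libraries. Single libraries were higher, with 34 counts (0.502 RPKM) for Hoxa7 in R62850_1 and 31 counts (0.721 RPKM) for Hoxb6 in R62848_1.

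Group 8 broke the decline with number. Hoxd8 (chr2:74704615-74707933) ran from 0.494 RPKM in R62850_3 through 1.20 to 2.05 in R63496_2 and had counts in every library. It made up at least 79.3% of its group in each library, while Hoxb8 had 28 counts in all and Hoxc8 had none. Hoxd8 is the lowest-numbered gene of cluster D after Hoxd4, since mouse has no Hoxd5, Hoxd6 or Hoxd7. Its 5' neighbour Hoxd9 was the one posterior gene with counts in every library, at a median of 0.234 RPKM and a highest value of 0.839 in R62848_3. Hoxd10 had 19 counts and Hoxd11, Hoxd12 and Hoxd13 had none, so the reads in cluster D faded over these neighbours.

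In cluster C the highest member was Hoxc9 with a median of 0.0175 RPKM, 24 counts in 9 libraries and at most 7 in one. Hoxc6 had 13 counts. The whole cluster had 48, or 0.508% of all HOX counts, and Hoxc5, Hoxc8 and Hoxc10 to Hoxc13 had none. Posterior genes of clusters A and B were at a similar floor, with 2 counts for Hoxa9 and 31 for Hoxb9, and none for Hoxa10, Hoxa11, Hoxa13 and Hoxb13.

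The order of the 9 kept members by median RPKM was Hoxa2, Hoxb4, Hoxa5, Hoxd8, Hoxa4, Hoxb3, Hoxb2, Hoxa3 and Hoxd4. For all 8 neighbouring pairs in this order the median of the within-library difference was smaller in size than its SD. This describes the spread and does not test whether a pair differed. Hoxa2 exceeded Hoxb4 in 8 of 17 libraries, with a median difference of -0.00956 RPKM and an SD of 0.668. Hoxa4 exceeded Hoxb3 in 14 libraries, the most of any neighbouring pair, by a median of 0.207 with an SD of 0.318. At median counts of 32 to 81, counting error alone gives a coefficient of variation of 11.1% to 17.7%.

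Some reads cannot be assigned to 1 HOX gene with confidence. Shared exonic bases were taken from GENCODE M21, and no source here says whether the authors counted by strand. Hoxb3 shared 52.9% and Hoxb2 27.3% of their exonic bases with the antisense RNA Hoxb3os. Hoxd4 shared 52.3% and Hoxd3 62.8%, with each other and with overlapping rows. Hoxa3 shared 27.1%, Hoxa4 15.997% and Hoxa2 15.04%. Hoxa5, Hoxb4 and Hoxd8 shared none, so these 3 carry the least doubt.

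Libraries with the same code were asked whether they resembled each other more than libraries of other codes, with the edgeR quasi-likelihood F test over all 15795 kept genes. With Benjamini-Hochberg adjusted p below 0.05, 6 of the 9 tested HOX genes passed, against 48.6% of all genes tested and 51.2% of the protein-coding ones. Of the 1915 tested genes with median counts of 32 to 81, the range of these HOX genes, 37.5% passed. With 9 genes the HOX figure is a count only, and nothing particular to HOX genes is read from it. By this edgeR test the genes were Hoxb2 (adjusted p = 0.0062), Hoxb3 (0.0063), Hoxa2 (0.019), Hoxb4 (0.033), Hoxd8 (0.033) and Hoxa5 (0.040). Hoxa3 (edgeR adjusted p = 0.073), Hoxd4 (0.13) and Hoxa4 (0.31) did not pass.

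Hoxb2 averaged 1.18 ± 0.151 RPKM in R62848 (SD, n = 3) and 0.262 ± 0.182 in R63494 (SD, n = 2), a ratio of 4.49. Hoxa2 averaged 2.06 ± 0.518 in R62848 and 0.542 ± 0.0186 in R63494, a ratio of 3.80. Hoxb3 averaged 1.495 ± 0.292 and 0.536 ± 0.245, and Hoxb4 2.42 ± 0.517 and 1.04 ± 0.258, in the same 2 codes. For the other 2 genes the highest code was another one. Hoxa5 averaged 1.46 ± 0.269 in R62850 against 0.427 ± 0.156 in R63494, and Hoxd8 averaged 1.72 ± 0.454 in R63496 against 0.644 ± 0.0363 in R63494. R63494 had the lowest mean of 7 of the 9 kept members, against 23.2% of all genes tested, and R62848 the highest mean of 7, against 17.9%.

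The call rests on these codes. Without the 2 R63494 libraries 2 of 8 tested members passed, namely Hoxb2 and Hoxb3, against 44.9% of all genes in that fit. Without the 3 R62848 libraries 2 of 8 passed, namely Hoxb2 and Hoxa5, against 42.2% of all genes. Leaving out R63494_1 alone left 3, against 46.8% of all genes, and leaving out R63494_2 alone left 2, against 48.2%. Hoxb2 passed under all 24 alternatives in edgeR, DESeq2 or limma, with adjusted p from 0.00017 to 0.032.

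**Figure D3:**
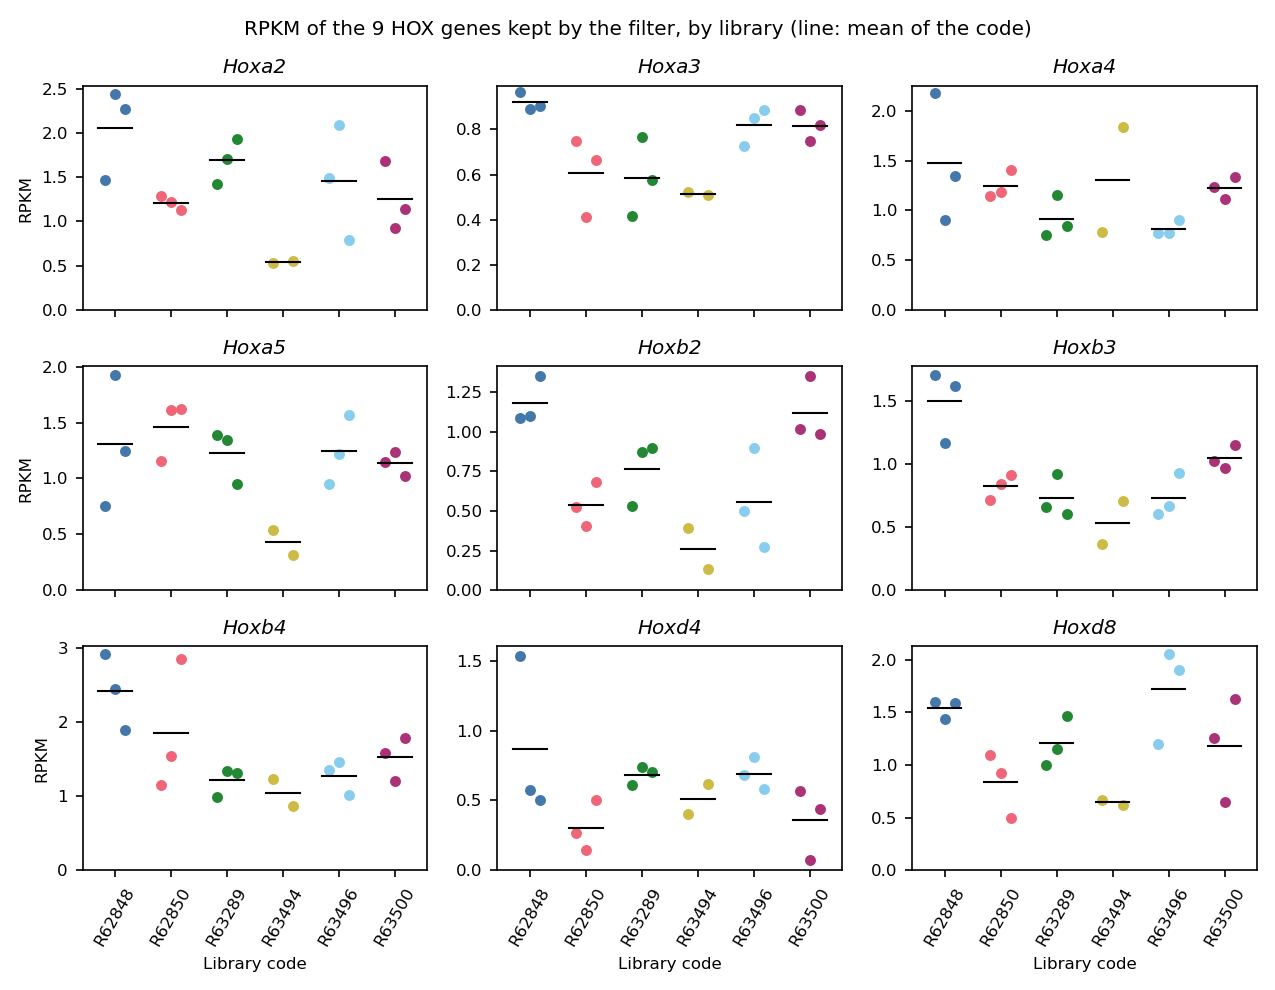
RPKM of the 9 kept HOX genes in each library, with 1 panel per gene, library codes on the horizontal axis, points for libraries and a line for the mean of the code; panels differ in scale. R63494 lies lowest for Hoxa2 and Hoxa5, R62848 lies highest for Hoxa3 and Hoxb3, and a single R62848 library at 1.53 stands apart for Hoxd4.

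Summed HOX RPKM averaged 15.3 ± 1.31 in R62848 (SD, n = 3), 10.9 ± 1.23 in R63500, 10.8 ± 1.47 in R63496, 10.3 ± 1.56 in R62850, 9.94 ± 1.06 in R63289 and 6.93 ± 0.854 in R63494 (SD, n = 2). The lowest R62848 library, at 14.5, lay above the highest of the rest at 12.5, and the highest R63494 library, at 7.53, lay below the lowest of the rest at 8.73. Some marker lists of other cell types moved with this and others did not. All 10 fibroblast markers had counts, and their summed level was 3299 to 3814 CPM in R63494, 5345 to 8091 in R62850, R63289 and R63496, 12790 to 14259 in R62848 and 14096 to 15829 in R63500. R63494 was thus lowest in both sums, while R63500 had the highest fibroblast sum without the highest HOX sum. The single markers were split. Col1a1, Col1a2, Fn1 and Thy1 had their highest code mean in R63500. Col3a1, Pdgfra, Dcn, Lum, Dpt and Postn had theirs in R62848, as the HOX sum did. All 6 endothelial markers had counts, with sums of 395 to 437 CPM in R62848, 282 to 356 in R63500 and 195 to 252 elsewhere. The R63494 libraries, at 195 and 245, overlapped R62850, R63289 and R63496 in this sum. By single marker, Pecam1, Cdh5, Kdr, Tie1 and Emcn had their lowest code mean in R63494. Vwf had its highest there and reached 93.7 CPM in R63494_2. Mesothelial markers, 5 of 5 with counts and mostly Msln, summed to 196 to 219 CPM in R62848 and 71.0 to 72.0 in R63494, while the mesothelial genes Wt1 and Upk3b had medians of 0.157 and 0.0950 RPKM. Smooth muscle and mural markers, 7 of 7 with counts, summed to 468 to 534 CPM in R62848, 263 to 303 in R63494 and 251 to 435 in the rest. Macrophage markers, 5 of 5 with counts, summed to 824 to 887 CPM in R62848 and 433 to 594 in R63494. Their sums in the rest were 708 to 1124 CPM. Cholangiocyte sums were 8396 to 8913 in R62848 and 9525 to 9754 in R63494. Nerve and Schwann markers summed to 69.2 to 77.2 CPM in R62848 and 96.4 to 98.8 in R63494. Hepatocyte markers summed to 161 to 290 CPM in R62848 and 518 to 654 in R63494. This sum was mostly Ttr, which ran from 155 to 831 CPM over all libraries. Alb reached at most 31.0 CPM, in R62848_3. Apoa1 went the other way from the sum, with a mean of 1.96 RPKM in R62848 and 0 in R63494. The part of these cell types in the HOX differences was not tested. Without the R62850 libraries, which carried the acinar signal, 7 of 9 tested members passed, against 40.9% of all genes.

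**Figure D4:**
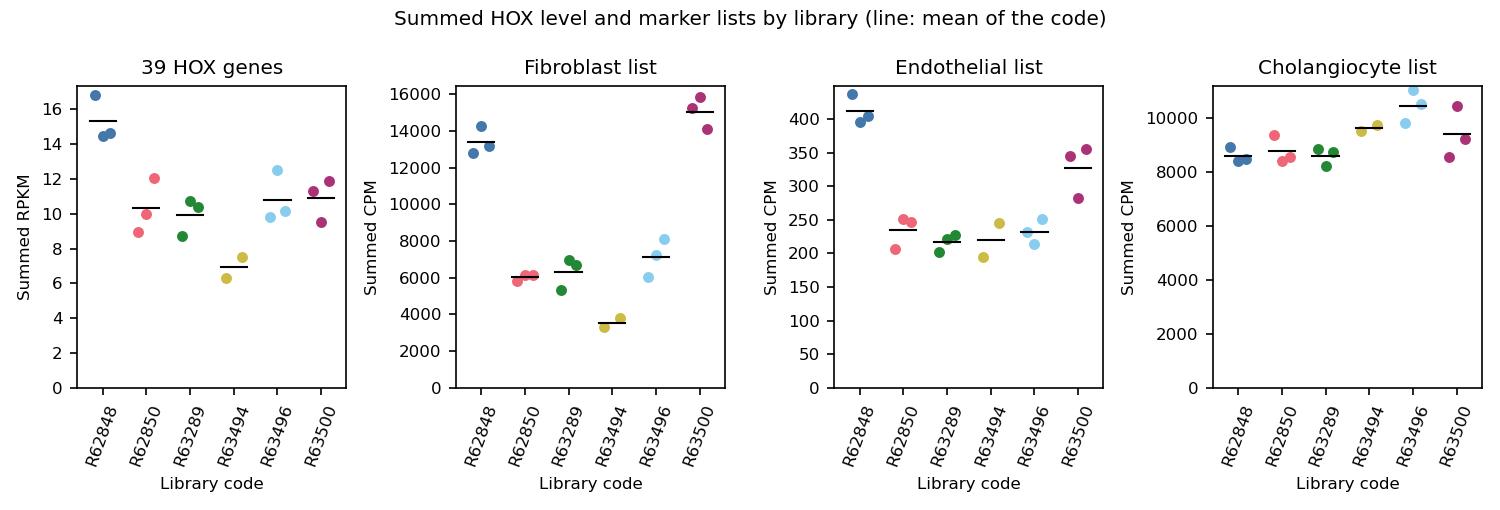
Summed RPKM of the 39 HOX genes and summed CPM of 3 marker lists by library code, with points for libraries and a line for the mean of the code; every axis starts at 0. HOX sums are highest in R62848 (mean 15.3) and lowest in R63494 (mean 6.93), fibroblast sums are highest in R63500, and cholangiocyte sums lie between 8220 and 11047 throughout.

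Non-coding rows within 10000 bases of the clusters numbered 47, and 18 had counts. Only 3 were frequent enough to test, and 2 of them passed, against 48.6% of all genes. Hotairm1, an antisense RNA beside Hoxa2 known from myeloid cells, ran from 1.10 through a median of 2.01 to 3.03 RPKM (edgeR adjusted p = 0.038). Its median stood above that of every HOX gene. Hoxb3os ran from 0.593 through 1.27 to 2.29 RPKM (edgeR adjusted p = 0.00051). Both had their highest code mean in R62848 and their lowest in R63494, as did Hoxa2, Hoxb2 and Hoxb3 beside them. Hoxb3os shares exonic bases with Hoxb2 and Hoxb3, as given above, and the strand setting is not known. The values of these 3 rows may therefore not be independent. Hoxaas2 had a median of 0.765 RPKM and did not pass (edgeR adjusted p = 0.25). Hotair, Hottip and Hoxa11os, which lie among the posterior genes, had no counts.

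The clusters also hold microRNA genes, whose mature forms pair with target RNAs through the seed, bases 2 to 8, printed in capitals from RefSeq on GRCm38.p6. The 4 shown here fall into a pair of seed families, one beside the genes of group 4 and one beside those of group 9, and are printed for that reason. Mir615, in cluster C, gives mature forms with neither seed and had no counts.
miR-10a-5p: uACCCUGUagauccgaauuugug
miR-10b-5p: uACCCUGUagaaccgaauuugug
miR-196a-5p: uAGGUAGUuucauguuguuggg
miR-196b-5p: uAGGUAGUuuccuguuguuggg

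The miR-10 pair shares the seed ACCCUGU, and its genes lie beside group 4, in clusters B and D. The miR-196 pair shares AGGUAGU, and its genes lie beside group 9, in clusters A, B and C. Mir10a had counts in 6 libraries, at most 6 in one. Mir10b, Mir196a-1, Mir196a-2 and Mir196b had none. These counts come from reads on the hairpin genes in a library of long RNA and do not measure the mature microRNAs.

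HOX proteins bind DNA together with PBX, MEIS and PKNOX homeodomain proteins, and several of these cofactors were read at higher levels than any HOX gene. Of the 9 cofactors 7 had a median of at least 1 RPKM, while Pbx4 and Pknox2 had medians of 0.251 and 0.885 and Meis1 of 1.14, which lay among those of the kept HOX genes or below them. Pbx2 ran from 12.7 through a median of 16.4 to 18.6 RPKM, and Meis3 from 5.23 through 7.23 to 10.01. The lowest Meis3 value thus exceeded the highest value of any HOX gene, 2.92. Of 8 tested cofactors 6 passed between codes, against 48.6% of all genes, and 3 of the 6 had their lowest mean in R63494, against 25.4% of all genes that passed. Meis2 was lowest in R62848 and highest in R63494, at 5.68 and 8.40 RPKM (edgeR adjusted p = 0.00020), and Pknox2 was highest in R63500 at 1.55 (edgeR adjusted p = 0.00074).

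The ParaHox genes, a sister family of the HOX clusters that patterns the gut, had 1 member frequent enough to test. Pdx1, which marks the embryonic region that gives rise to pancreas, duodenum and extrahepatic bile duct, ran from 9.74 through a median of 12.9 to 17.1 RPKM. It did not pass between codes (edgeR adjusted p = 0.80). Cdx2, the intestinal factor, had a median of 0.178 RPKM and its highest code mean, 1.05, in the R62850 libraries that carried the acinar signal. It reached 1.37 RPKM in R62850_1, which had the lowest acinar sum of its code, 3829 CPM. Cdx1 had counts in 6 libraries, and Gsx1, Gsx2 and Cdx4 had none.

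**Figure D5:**
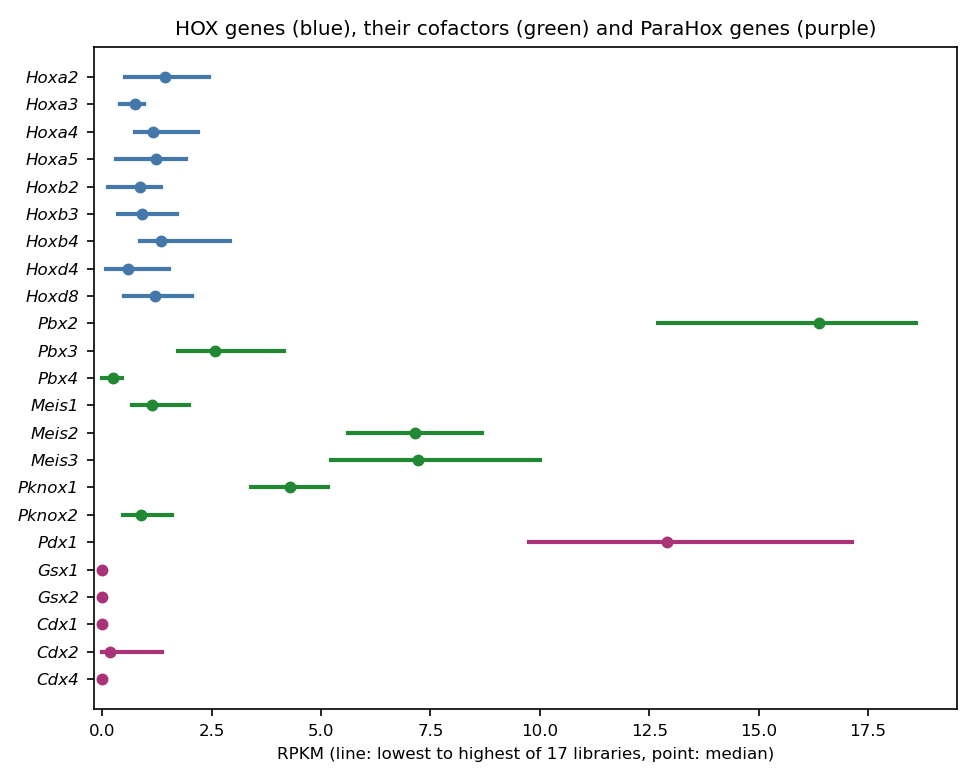
RPKM of the 9 kept HOX genes, 8 cofactors and 6 ParaHox genes, with a line from the lowest to the highest of 17 libraries and a point at the median. Pbx2, Meis2, Meis3, Pknox1 and Pdx1 lie wholly above the HOX genes, whose highest value is 2.92.

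Polycomb genes were all read. Of 25 genes, 24 had a median of at least 1 RPKM, and 10 of 25 passed between codes, against 48.6% of all genes. Phf1, a partner of the PRC2 complex, had a median of 26.5 RPKM, Cbx6 of 21.7 and Phc2 of 15.3. Ezh2, the catalytic subunit found in dividing cells, had a median of 2.90, and Ezh1, its counterpart in resting cells, of 8.70. Cbx7, which reads the Polycomb mark, had the lowest adjusted p of the list, with a mean of 16.2 RPKM in R62850 and 6.20 in R62848 (edgeR adjusted p = 3.2e-09). Cbx6 ran from a mean of 34.7 in R63289 to 16.5 in R63494 (edgeR adjusted p = 2.3e-06).

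Of 14 trithorax and other activating genes all had a median of at least 1 RPKM, and 6 passed between codes, against 48.6% of all genes. Dpy30, a core subunit of the H3K4 methyltransferases, had a median of 24.0 RPKM, Kdm6b, which removes the Polycomb mark, of 16.4 and Mllt1 of 14.9. Kdm6a had its lowest mean of 3.96 in R62850 and its highest of 7.49 in R63289 (edgeR adjusted p = 0.00028). Kmt2a, the methyltransferase best known for maintaining HOX expression, had a median of 5.96 and did not pass (edgeR adjusted p = 0.19).

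Of 18 retinoid genes 14 were tested and 10 passed, against 48.6% of all genes, and 5 of the 10 had their lowest mean in R63494, against 25.4% of all genes that passed. Cyp26a1, which breaks down retinoic acid, had a mean of 29.1 in R63500 and 8.10 in R63494 (edgeR adjusted p = 5.3e-05). Aldh1a2, the main retinoic acid-making enzyme of embryonic mesenchyme, was at 5.03 in R63500 and 0.524 in R63494 (edgeR adjusted p = 0.015). Rdh10, which makes retinal, was highest in R63500 at 27.8 and lowest in R62850 at 12.1 (edgeR adjusted p = 9.6e-07). Aldh1a1 was highest in R62850 at 43.9 (edgeR adjusted p = 0.00069). The receptor genes Rara, Rxra and Rxrb did not pass, with medians of 13.2, 17.5 and 16.98 RPKM, nor did Rarb with 0.402. The receptor gene Rarg, with a median of 13.6 RPKM, passed (edgeR adjusted p = 0.033) and was highest in R62850 at 16.8. The fibroblast sums given above, lowest in R63494 and highest in R63500, stand beside these values, and their part was not tested.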

How the data were processed

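RNA-seq libraries of mouse bile duct, 17 in all, were analysed from the authors' deposited table of raw read counts per gene. A further 17 columns of per-sample values were not used. Per the submitters' processing notes, the build was mm10 and the tools, with no role stated, were edgeR 3.40.2, featureCounts and STAR 2.6.1c; no source used here gives the annotation release or strand setting. Columns matched no sample title, so libraries are named by column and belong to 1 group. No 2 libraries were identical.

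Genes were kept with filterByExpr in edgeR 4.0.16 (R 4.3.3; intercept only; 15795 genes) and scaled by TMM. RPKM use the table's lengths. CPM on the log2 scale use a prior count of 2. The test between codes was glmQLFTest with trended dispersion and a robust prior, over all kept genes, Benjamini-Hochberg adjusted p below 0.05. The biological coefficient of variation within codes was 15.1%. On simulated data with 200 of 15795 genes changed in 1 code, 75% of 2-fold and 93% of 4-fold changes were recovered, with 14 false calls. The changed genes were drawn from all kept genes, so recovery at the low counts of the HOX genes was not measured. Alternatives were DESeq2 1.42.0, limma 3.58.1, other filters and scalings, and omitted libraries.

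Named members are the 3 highest of each cluster, the highest of each paralogue number, and the 6 tested members with the largest SD and the lowest adjusted p; in companion lists, the 3 highest and the 2 lowest adjusted p. Others were named for their role or after their values were seen, and a few that the rule names are not reported here. Members and lists were chosen with earlier results of these data known. List genes were all matched, 2 by identifier. Positions are those of the table; 38 of 39 members had the same start and end in GENCODE M21. Limits for counts of 0 cover counting error only, because reads lacking molecular identifiers may repeat a molecule.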

Additional observations from a re-analysis of the deposited data

How the results depend on the processing

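Without a filter, 24 members had counts and 6 of the 24 passed between codes, with Hoxa7 (adjusted p = 0.023) in place of Hoxa5 (0.086); leaving out each library in turn kept 8 to 9 members. At a threshold of 0.5 RPKM, 9 members passed in place of 5, and leaving out each library gave 5 throughout. By counts instead of RPKM, the share of cluster A was 40.2%, the anterior share 45.1% and the central share 51.4%; leaving out each library moved the shares of summed RPKM by less than their SD over libraries (shares of counts were not rerun this way). Between codes, 2 of 8 members passed without R63494 and 2 of 8 without R62848, both alternatives chosen after seeing the data, and 2 to 6 when each library was left out. edgeR with DESeq2 size factors gave 6, the DESeq2 likelihood ratio test 7, limma-voom 7, and the fit without R62850 7. Of single members, adjusted p ranged from 0.0043 to 0.28 for Hoxa2 (4 of 24 alternatives lost the call), 0.014 to 0.87 for Hoxa5 (9), 0.0079 to 0.30 for Hoxb4 (6), 0.0078 to 0.13 for Hoxd8 (7) and 0.00014 to 0.21 for Hoxb3 (1, without R62848). Hoxa3 passed in 4. The cause was not tested. No paired analysis was possible because the labels give a single group and the columns carry no sample numbers. The planned use of the authors' per-length values was not run, because those columns were not used. Depth limits the members with a median under 10 counts, none of which the filter kept.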

Other observations

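Levels of the genes that flank the clusters differed from side to side. Skap2, 143041 bases beyond the 3' end of cluster A, had a median of 36.5 RPKM, while Evx1, a homeobox gene 52618 bases beyond Hoxa13, had no counts. Evx2, 8753 bases beyond Hoxd13, had 2 counts in 1 library, and Mtx2, at 60661 bases from Hoxd1 on the other side, had a median of 9.64 RPKM. Cluster C, nearly without counts itself, lay between Calcoco1 with a median of 17.7 RPKM and Smug1 with 5.61. Cluster B lay between Ttll6 at 0.179 and Skap1 at 0.343.

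Of 4 short rows annotated as miscellaneous RNA, Gm27867, Gm27861 and Gm27868 lay inside Hotairm1 and Gm27477 between it and Hoxa2. Gm27868, 102 bases long, had counts in all 17 libraries, from 1 to 20, and a median of 5.64 RPKM. Gm27477, 143 bases long, had counts in 16 libraries and a median of 3.49 RPKM. Gm27867 and Gm27861 had counts in 13 and 15 libraries, with medians of 1.25 and 0.971 RPKM. At such lengths a few counts give a high RPKM, and reads on the 3 rows inside Hotairm1 cannot be told apart from those of Hotairm1 itself.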
